A study of Rattus norvegicus with 12 samples.

Results

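The transcripts of 4 plasma membrane carriers for glucose and for monocarboxylates, SLC2A1, SLC16A1, SLC16A6 and SLC16A8, were compared in rat choroid plexus between the light and the dark phase. They were chosen by symbol, and each was found under 1 Ensembl identifier among the 32883 genes of the deposited tables (ENSRNOG00000007284, ENSRNOG00000019996, ENSRNOG00000000245 and ENSRNOG00000012090, in the order above). The symbols and identifiers were paired through lists of genes that the study had called differentially expressed in these same libraries, so that a phase difference in these 4 genes is not independent of how they could be found. Choroid plexus from the lateral and the fourth ventricles of 12 male Sprague-Dawley rats of 9 weeks was sequenced as whole tissue, 6 rats at zeitgeber time 8 h (light phase) and 6 at zeitgeber time 20 h (dark phase), with 1 library per rat. Each phase was sampled at a single time, so the course within a phase was not measured. Rats of both groups came from 1 strain, ate freely and were anesthetized with xylazine and ketamine, and in the dark phase work was done in darkness but for a red lamp.

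SLC2A1 encodes GLUT1, the facilitative glucose transporter by which glucose crosses the barriers between blood and brain, including the blood-facing membrane of the choroid plexus epithelium and the capillary endothelium of the brain. The SLC16A genes encode the monocarboxylate transporters (MCTs). MCT1 (SLC16A1) and MCT3 (SLC16A8) carry lactate, pyruvate and other short monocarboxylates together with a proton, MCT1 in many cell types and MCT3 chiefly in the retinal pigment epithelium and the choroid plexus epithelium. SLC16A6 encodes MCT7, a member of the same family that has been described as a carrier of ketone bodies and taurine. In the choroid plexus these carriers serve a highly active secretory epithelium and the exchange of fuels between blood and cerebrospinal fluid.

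Expression is given in TPM, the share of a gene among all transcripts of a library after correction for gene length, so that levels can be compared between genes. The methods of the study name a nominal sequencing output, and the number of reads behind each library is not in the tables used here. The steps in the FPKM (a length-corrected fragment measure) of rare genes gave only a rough relative depth, 0.876 to 1.37 for light-phase and 0.895 to 1.09 for dark-phase libraries. Every library held the defining transcripts of choroid plexus epithelium, with TTR at 25.4 to 31.0% of all TPM. Light-phase replicate 2 stood apart from its phase with the lowest of these shares, the highest levels of the 3 paired globin genes and the highest level of the endothelial gene PLVAP. Because whole tissue was sequenced, fewer cells of a type and less RNA per cell cannot be told apart.

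The start regions of the transporter genes were looked up whatever the direction of their phase difference, and are shown as a description. The windows run from 250 bases before to 50 bases after the start site annotated by RefSeq (GRCr8). SLC2A1, SLC16A1 and SLC16A8 were matched by symbol in the table of windows, and no window was matched for SLC16A6. Capitals mark each match on either strand to the E-box of the clock factors (CACGTG), the D-box (TTATGTAA or TTACGTAA), the core of the ROR and REV-ERB element (TAGGTCA or TGGGTCA), the hypoxia response core (ACGTG, which lies within the E-box) and the GC box (GGGCGG).
SLC2A1 (chr5:138002272-138002571, plus strand): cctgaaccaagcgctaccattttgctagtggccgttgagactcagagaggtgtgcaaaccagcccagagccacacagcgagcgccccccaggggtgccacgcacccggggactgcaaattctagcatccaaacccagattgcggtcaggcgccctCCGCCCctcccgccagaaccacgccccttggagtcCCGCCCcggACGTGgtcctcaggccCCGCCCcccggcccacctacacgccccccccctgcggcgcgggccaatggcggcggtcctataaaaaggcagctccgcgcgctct
SLC16A1 (chr2:194812410-194812709, plus strand): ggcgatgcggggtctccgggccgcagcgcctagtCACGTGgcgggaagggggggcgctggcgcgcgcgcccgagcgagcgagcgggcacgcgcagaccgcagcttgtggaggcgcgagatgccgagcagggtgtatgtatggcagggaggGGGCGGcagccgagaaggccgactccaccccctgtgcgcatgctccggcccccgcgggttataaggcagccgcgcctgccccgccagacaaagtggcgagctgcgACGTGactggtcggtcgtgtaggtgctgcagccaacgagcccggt
SLC16A8 (chr7:112702447-112702746, minus strand): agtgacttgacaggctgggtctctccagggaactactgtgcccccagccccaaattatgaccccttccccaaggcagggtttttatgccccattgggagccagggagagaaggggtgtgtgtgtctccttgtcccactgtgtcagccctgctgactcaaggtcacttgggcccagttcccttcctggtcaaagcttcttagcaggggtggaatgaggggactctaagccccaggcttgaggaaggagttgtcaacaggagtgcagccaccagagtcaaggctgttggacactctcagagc

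The SLC2A1 window held 3 GC boxes, at 95, 60 and 35 bases before the start site, and 1 hypoxia response core between the last 2 of them. The SLC16A1 window held 1 E-box at 216 bases before the start site, 1 GC box and 1 further hypoxia response core just after the start site. None of the 5 motifs was found in the SLC16A8 window. Of all 33469 windows of this length, 6.42% held the E-box, 1.01% the D-box, 6.60% the ROR core, 19.3% the hypoxia response core and 33.1% the GC box. The windows also differed in base composition. SLC16A1 had 72.7% G and C with 39 CpG dinucleotides, SLC2A1 68.3% with 25, and SLC16A8 57.0% with 0, while the median over all windows was 51.7%. The windows of SLC16A12 and SLC2A12, members of these families described below, are not printed. They held 0 of the 5 motifs and had 41.7% and 48.0% G and C, with 2 and 9 CpG dinucleotides. The TATA box (TATAAA) and the CCAAT box (CCAAT), searched on both strands and not in capitals, were held by 14.2% and 37.5% of all windows. SLC2A1 had 1 of each, both after the start site, and SLC16A8 had 1 CCAAT box at 159 bases before it. A match describes the letters of the sequence and says nothing of binding in this tissue.

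The 4 genes did not move in the same direction. In the dark phase SLC16A6 rose 1.49-fold, SLC2A1 and SLC16A1 fell to 0.871 and 0.742 of their light-phase level, and SLC16A8 did not pass the test. The calls of SLC2A1 and SLC16A1 were lost (limma FDR = 0.261 for both) when a measure of the transcript length of each library, described at the end, was added to the model. The fold changes were estimated with limma on log2(scaled TPM + 0.5), dark against light phase, fitted over the 12513 genes that averaged 1 TPM or more and adjusted over all of them by Benjamini-Hochberg (FDR). At an FDR below 0.05, 17.6% of all tested genes were called, 9.52% as higher in the dark phase and 8.1% as higher in the light phase, and 3 of the 4 transporters were called. In 8.26% of all tested genes the 2 phases did not overlap in TPM, 5.12% with the dark phase higher and 3.14% with the light phase higher. The phases did not overlap in SLC16A6 and in SLC2A1. These shares belong to the contrast that the identifiers were listed for, so nothing is read from the count. Without light-phase replicate 2 the log2 fold changes were -0.20 for SLC2A1 (limma FDR = 0.0155), -0.45 for SLC16A1 (limma FDR = 0.0148), 0.59 for SLC16A6 (limma FDR = 0.000199) and -0.47 for SLC16A8 (limma FDR = 0.0721).

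**Figure D1:**
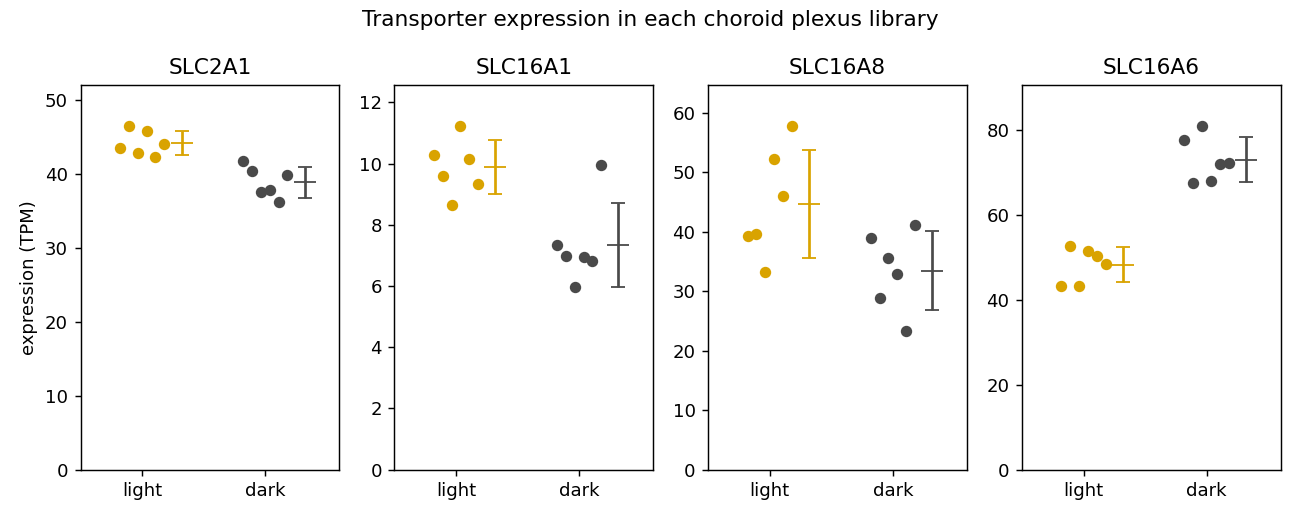
Expression of the 4 transporters in TPM (y axes from 0, a scale for each gene) in the 6 light-phase and 6 dark-phase libraries. Points are libraries in the order of replicates 1 to 6, and bars are the mean ± SD; all dark-phase points of SLC16A6 lie above its light-phase points, those of SLC2A1 lie below, and SLC16A1 and SLC16A8 overlap.

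SLC2A1 (GLUT1) was expressed at 43.6, 46.5, 42.9, 45.9, 42.3 and 44.1 TPM in light-phase replicates 1 to 6. The dark-phase replicates 1 to 6 had 41.8, 40.4, 37.5, 37.8, 36.2 and 39.9 TPM. Every dark-phase library lay below every light-phase library, although the nearest of the 2 phases, at 42.3 and 41.8 TPM, were less than 1 TPM apart. The means were 44.2 ± 1.67 TPM and 38.9 ± 2.08 TPM (SD, n = 6 each), and the light phase was thus 13.6% higher. The log2 fold change was -0.20 (standard error 0.046, 95% interval -0.30 to -0.10, limma FDR = 0.0104), and an exact permutation test, two-sided, gave p = 0.00216, the smallest that 6 against 6 allow. SLC2A1 was the least variable of the 4 genes. Its SD within phases was 0.076 on the log2 scale, and the median of the 8257 genes expressed at 5 to 100 TPM was 0.115.

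SLC16A1 (MCT1) was the least abundant of the 4. Light-phase replicates 1 to 6 had 10.3, 9.60, 8.65, 11.2, 10.2 and 9.34 TPM. Dark-phase replicates 1 to 6 had 7.35, 6.99, 5.97, 6.96, 6.82 and 9.95 TPM. In 5 of the 6 dark-phase libraries the value lay below all light-phase libraries, and replicate 6 lay within the light-phase range. With means of 9.87 ± 0.884 TPM and 7.34 ± 1.36 TPM (SD, n = 6 each), the light phase was 34.5% higher. The log2 fold change was -0.43 (standard error 0.104, 95% interval -0.66 to -0.21, limma FDR = 0.0128; two-sided exact permutation test, p = 0.00866). Without dark-phase replicate 6 it was -0.51 (limma FDR = 0.00166).

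SLC16A8 (MCT3) varied most from rat to rat. Light-phase replicates 1 to 6 had 39.3, 39.6, 33.3, 52.3, 46.0 and 57.8 TPM. Dark-phase replicates 1 to 6 had 39.0, 28.8, 35.5, 33.0, 23.4 and 41.2 TPM. Only dark-phase replicates 2, 4 and 5 lay below all light-phase libraries, and light-phase replicates 4, 5 and 6 lay above all dark-phase libraries. The means were 44.7 ± 9.10 TPM and 33.5 ± 6.60 TPM (SD, n = 6 each). The log2 fold change of -0.43 was close to that of SLC16A1, but with a standard error of 0.161 it did not pass the test (limma FDR = 0.0856, unadjusted p = 0.0191; two-sided exact permutation test, p = 0.0455). Its 95% interval, not adjusted for the number of genes, ran from a dark-phase level of 0.584 to 0.944 of the light-phase level. The SD within phases was 0.313 on the log2 scale, higher than in 93.4% of the genes expressed at 5 to 100 TPM. Without light-phase replicate 3, the lowest of its phase, the log2 fold change was -0.51 and passed (limma FDR = 0.0445), and no other library did this when left out. The study tested read counts instead, and SLC16A8 was on a list of genes that it called differentially expressed.

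SLC16A6 (MCT7) was the gene of the 4 that rose. Light-phase replicates 1 to 6 had 43.4, 52.6, 43.3, 51.4, 50.4 and 48.5 TPM. Dark-phase replicates 1 to 6 had 77.7, 67.4, 80.9, 67.9, 72.0 and 72.3 TPM. The lowest dark-phase library exceeded the highest light-phase library, 67.4 against 52.6 TPM. The means were 48.3 ± 4.06 TPM and 73.0 ± 5.35 TPM (SD, n = 6 each), a rise of 51.3%. The log2 fold change was 0.58 (standard error 0.065, 95% interval 0.44 to 0.72, limma FDR = 9.4e-05; two-sided exact permutation test, p = 0.00216).

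The distance of SLC16A6 from the other transporters differed between the phases. In the light phase SLC16A6, SLC16A8 and SLC2A1 followed each other at means of 48.3, 44.7 and 44.2 TPM, and these neighbours did not differ beyond their spread. SLC16A6 exceeded SLC16A8 in 4 of the 6 light-phase libraries and SLC2A1 in 5 of them. SLC2A1 and SLC16A8 stood on either side of each other in 3 libraries each. In the dark phase SLC16A6 stood apart from the others in 6 of 6 libraries, followed by SLC2A1 at 38.9 TPM and SLC16A8 at 33.5 TPM, with SLC2A1 the higher in 5 of 6 libraries. SLC16A1 was the lowest in every library of both phases, and the 4 genes together amounted to 128 to 161 TPM in the light phase and 138 to 166 TPM in the dark phase.

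Ratios between 2 genes of the same library do not depend on how libraries are scaled, and are given as a description. SLC16A6 amounted to 0.994 to 1.19 times SLC2A1 in the light phase and 1.67 to 2.15 times in the dark phase. Relative to SLC16A8 it ranged from 0.840 to 1.33 and from 1.75 to 3.08, and relative to SLC16A1 from 4.22 to 5.48 and from 7.26 to 13.5. None of these 3 ratios overlapped between the phases. The ratios among the 3 other genes did overlap, with SLC2A1 at a median of 4.48 times SLC16A1 in the light phase and 5.56 times in the dark phase. As a share of the 4 genes, SLC16A6 took 30.4 to 35.5% in the light phase and 44.2 to 52.0% in the dark phase.

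**Figure D2:**
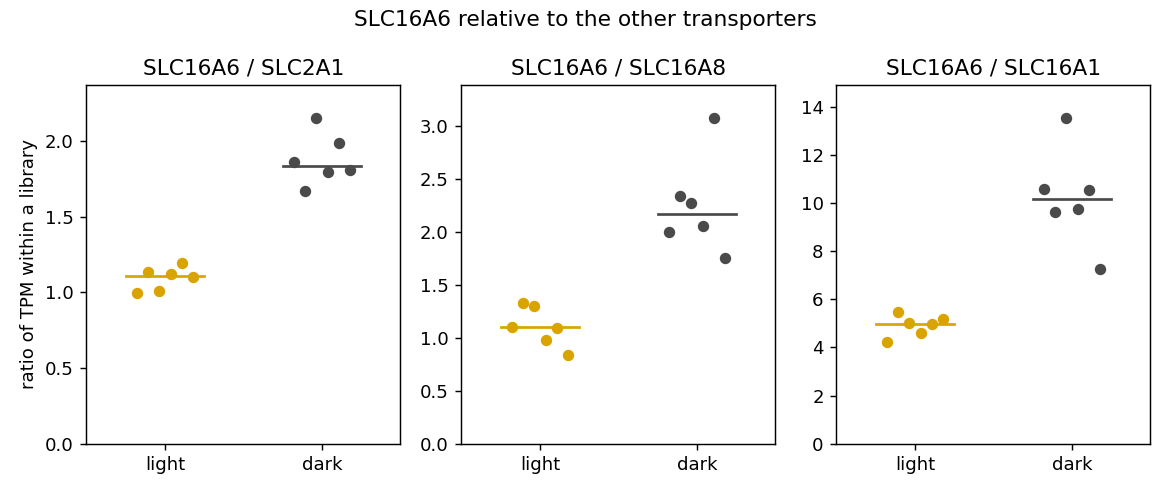
Ratio of SLC16A6 to SLC2A1, SLC16A8 and SLC16A1 in TPM within each library (y axes from 0), for the light and the dark phase. Points are libraries and lines are medians; in each panel all 6 dark-phase libraries lie above all 6 light-phase libraries.

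Within a phase, rats with more SLC16A8 also tended to have more of the other 3 transcripts. After the phase means had been subtracted, Pearson's r over the 12 libraries was 0.63 between SLC16A8 and SLC2A1, 0.60 between SLC16A8 and SLC16A6 and 0.53 between SLC16A8 and SLC16A1. The weakest such r was 0.11, between SLC16A1 and SLC16A6. Over the same libraries with the phase means kept, SLC16A6 and SLC2A1 had r = -0.69, and without them 0.39. The points share library and scaling, and these values are a description.

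The genes whose pattern was most like each transporter were ranked by Pearson's r over the 12 libraries, among genes that had a symbol and averaged 10 TPM or more. SLC2A1 was followed most closely by ATRAID (r = 0.963, and 0.91 without the phase means), CD82 (0.943 and 0.84) and TMEM248 (0.928 and 0.87). For SLC16A1 the closest were STIM2, an endoplasmic reticulum calcium sensor (0.895 and 0.71), PXYLP1 (0.882 and 0.68) and DIABLO (0.878 and 0.67). SLC16A6 was followed by FAM189A2 (0.974 and 0.77) and KREMEN1 (0.965 and 0.71). The dark-phase level of FAM189A2 was 38.6 ± 1.97 TPM and its light-phase level 21.5 ± 2.03 TPM (SD, n = 6 each), and limma gave a log2 fold change of 0.82 (FDR = 3.93e-06). SLC16A8 was followed by the anion exchanger SLC26A7 (0.934 and 0.90), the protease inhibitor CSTB (0.907 and 0.86) and STEAP1 (0.904 and 0.87). The genes were picked for a high r over these same libraries, so both r values are a description. The same holds for the phase difference of FAM189A2, which was picked for following a gene that differed between the phases.

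The other members of both families that could be paired with an identifier were read from the same fit. Of 14 symbols of the SLC2A family 3 could be paired, and of 13 considered in the SLC16A family 5. Because the symbols cover abundant genes and genes listed as differentially expressed, the paired genes are no sample of the families. Apart from the 4 transporters, 2 SLC2A genes and 2 SLC16A genes were examined, and of these 4, SLC2A12 was called as higher in the dark phase and SLC16A12 as higher in the light phase, beside 9.52% and 8.1% of all tested genes. The median log2 fold change was 0.21 over the 3 SLC2A genes and -0.43 over the 5 SLC16A genes, beside -0.007 over all tested genes.

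SLC2A12, which encodes the facilitative sugar transporter GLUT12, was the most abundant of the paired SLC2A genes and exceeded SLC2A1 in both phases. It had 95.4 to 111 TPM in the light phase (median 107 TPM) and 110 to 139 TPM in the dark phase (median 120 TPM), and the phases overlapped. Its log2 fold change was 0.21 (standard error 0.058, limma FDR = 0.0223, and 0.4 with the transcript length measure), against -0.20 for SLC2A1. SLC2A13, the proton-coupled myo-inositol transporter, was low at 1.97 ± 0.204 TPM and 2.41 ± 0.216 TPM (SD, n = 6 each) and was not called (limma FDR = 0.0948).

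SLC16A12, a creatine transporter of the MCT family, had the largest fold change of these 5 SLC16A genes. It had 70.7 to 93.9 TPM in the light phase (median 76.6 TPM) and 43.3 to 53.3 TPM in the dark phase (median 48.4 TPM), without overlap. The log2 fold change was -0.74 (standard error 0.065, limma FDR = 1.08e-05). SLC16A13 had 60.7 ± 6.87 TPM and 55.2 ± 3.57 TPM (SD, n = 6 each; limma FDR = 0.172).

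**Figure D3:**
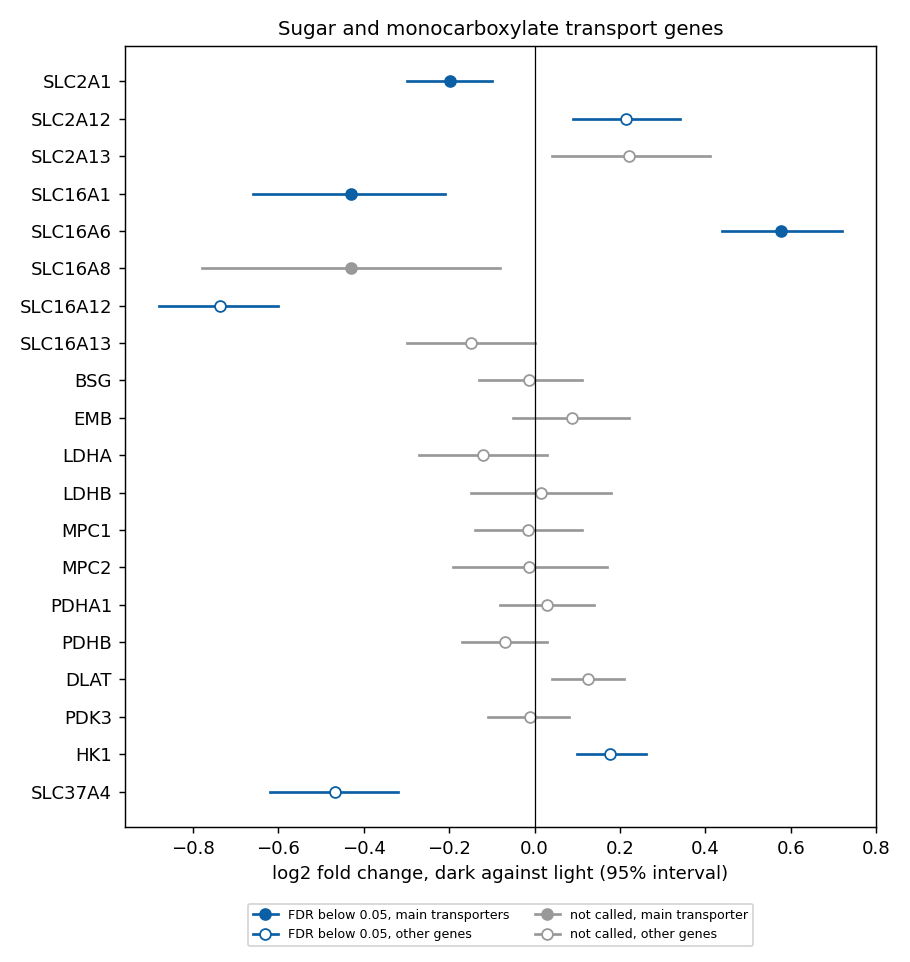
Log2 fold change, dark against light phase, with unadjusted 95% intervals for 3 SLC2A and 5 SLC16A genes, their partners and enzymes of lactate, pyruvate and glucose. Filled symbols are SLC2A1, SLC16A1, SLC16A6 and SLC16A8, and blue marks an FDR below 0.05; SLC16A6 lies farthest to the right and SLC16A12 farthest to the left.

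Transcripts of the proteins that work beside these carriers were tested from lists of known function. Basigin (BSG), the chaperone that MCT1 and MCT3 need to reach the membrane, was expressed at 3315 ± 201 TPM and 3321 ± 80.2 TPM (SD, n = 6 each), and limma estimated its log2 fold change at -0.01 (95% interval -0.13 to 0.11, FDR = 0.91). The related chaperone embigin (EMB) was not called either (limma FDR = 0.378). Of 12 listed genes of lactate and pyruvate metabolism 8 were paired and tested. Limma called 0 of these 8, beside 17.6% of all tested genes, and 1 reached an unadjusted p below 0.05 (30.6% of all tested genes did), DLAT of the pyruvate dehydrogenase complex (95% interval of the log2 fold change 0.04 to 0.21, limma FDR = 0.0505). For the lactate dehydrogenase genes the 95% intervals ran from -0.27 to 0.03 in LDHA (limma FDR = 0.25) and from -0.15 to 0.18 in LDHB (limma FDR = 0.919). The mitochondrial pyruvate carrier genes MPC1 and MPC2 had -0.02 and -0.01, and their 95% intervals ran from -0.14 to 0.11 and from -0.19 to 0.17.

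Of 9 genes listed for glucose phosphorylation and release only 2 could be paired, through tables that favour genes called as different, and both were called, in opposite directions, beside 17.6% of all tested genes. HK1, the hexokinase that phosphorylates glucose, rose, with 54.3 ± 2.21 TPM in dark-phase and 47.4 ± 1.29 TPM in light-phase libraries (SD, n = 6 per phase). The phases did not overlap in TPM before scaling. On the scaled values a two-sided exact permutation test gave p = 0.00433, which is not the smallest possible. The log2 fold change was 0.18 (standard error 0.037, limma FDR = 0.00625, and 0.124 with the transcript length measure). SLC37A4, which carries glucose 6-phosphate into the endoplasmic reticulum, was lower, at 8.27 to 10.35 TPM in the dark phase (median 9.89 TPM) against 11.9 to 14.9 TPM in the light phase (median 13.3 TPM), also without overlap (log2 fold change -0.47, standard error 0.07, limma FDR = 0.000733, and 0.066 with that measure). Of 6 listed regulators 3 were paired, TXNIP, HIF1A and EPAS1. Limma called 0 of the 3, while TXNIP and HIF1A had unadjusted p-values of 0.042 and 0.0445, and 30.6% of all tested genes had one below 0.05. TXNIP, a suppressor of glucose uptake, had a median of 61.4 TPM in the light and 55.1 TPM in the dark phase (limma FDR = 0.145), and HIF1A, which activates SLC2A1 under hypoxia in many tissues, 54.1 ± 4.05 TPM and 50.2 ± 1.37 TPM (SD, n = 6 each; limma FDR = 0.151). Of the sodium-coupled carriers, SLC5A9 alone could be paired, and with a mean below 1 TPM it was not tested. It had 0.74 to 1.08 TPM in the light phase (median 0.83 TPM) and 0.19 to 0.48 TPM in the dark phase (median 0.25 TPM), without overlap at this low level.

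Markers of other cells that the tissue could hold moved with the phases in part. Of 3 markers of brain capillary endothelium 2 could be paired, MFSD2A and SLCO1A4, and both had been listed as differentially expressed. Their summed level ranged from 9.66 to 13.4 TPM in the light phase and from 4.77 to 8.52 TPM in the dark phase, and limma called both as lower in the dark phase, beside 8.1% of all tested genes in that direction. MFSD2A ranged from 4.36 to 8.05 TPM in the light phase and from 1.64 to 3.42 TPM in the dark phase, without overlap, as did 3.14% of all tested genes in that direction. SLCO1A4 overlapped, with 4.87 to 6.05 TPM and 2.67 to 5.10 TPM. Over the 12 libraries MFSD2A had r = 0.58 with SLC2A1 and 0.55 with SLC16A1, and SLCO1A4 had 0.65 and 0.58. After the phase means had been subtracted these values were -0.52 and -0.45 for MFSD2A and 0.10 and 0.01 for SLCO1A4. Of 8 general endothelial markers 2 could be paired. FLT1 rose in the dark phase (log2 fold change 0.35, limma FDR = 0.000175) and PLVAP was not called (limma FDR = 0.463), and their sum ranged from 71.4 to 139 TPM and from 72.1 to 113 TPM.

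The 3 paired globin genes of 5 red blood cell markers summed to 7467 to 29550 TPM in the light phase and 4295 to 11130 TPM in the dark phase and were not called. Light-phase replicate 2 alone made up the upper end, and the medians were 9115 TPM and 7846 TPM. The 2 alpha-globin copies are near-identical, so their split is uncertain. Of the other lists, the 2 paired fibroblast markers of 5 summed to 136 to 216 TPM and 146 to 228 TPM. The 1 paired macrophage marker of 5, PTPRC, ranged from 1.93 to 2.97 TPM and from 1.27 to 2.14 TPM and was called as lower in the dark phase (limma FDR = 0.0497). Retinal pigment epithelium was not part of the tissue taken, so its markers are given only for their own level in choroid plexus. The 2 paired of 3, RLBP1 and BEST1, summed to 98.6 to 131 TPM and 84.1 to 147 TPM. BEST1 was called as higher in the dark phase (log2 fold change 0.20, limma FDR = 0.0291) and RLBP1 was not called (limma FDR = 0.703). No marker of neurons or astrocytes could be paired. After the phase means had been subtracted, r with the 19 paired markers of all lists ran from -0.52 (MFSD2A) to 0.76 (KL) for SLC2A1, from -0.78 (PTPRC) to 0.56 (KL) for SLC16A1, from -0.56 (PRLR) to 0.48 (KL) for SLC16A6 and from -0.49 (PLVAP) to 0.67 (KL) for SLC16A8, as a description over 12 libraries. No paired marker was at 0 in either group as a whole, and the part of other cells of the tissue in the transporter results was not tested.

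All 7 markers of choroid plexus epithelium could be paired, and limma called 4 of them as higher in the dark phase, beside 9.52% of all tested genes, and 0 as lower. The log2 fold changes were 0.17 for CLIC6, 0.24 for OTX2, 0.29 for KL and 0.67 for PRLR. TTR, FOLR1 and KCNJ13 were not called (limma FDR = 0.918, 0.88 and 0.938).

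**Figure D4:**
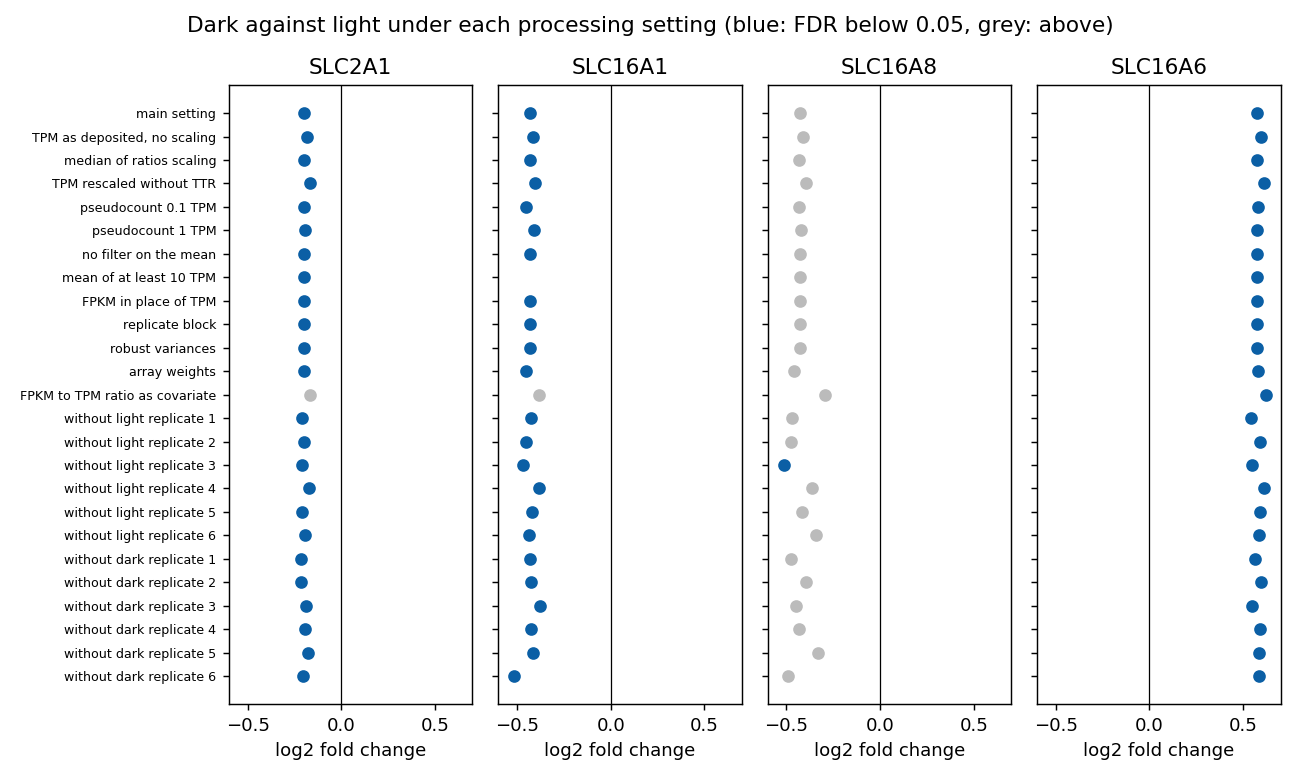
Log2 fold change of the 4 transporters, dark against light phase, under the main setting and each of 24 alternatives (1 per line). Blue marks an FDR below 0.05; every estimate keeps its side of 0, SLC16A6 is blue in all, and SLC16A8 is blue only without light-phase replicate 3. SLC16A1 has no value under the filter of at least 10 TPM.

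Summed FPKM divided by summed TPM is a quotient that falls as the mean effective transcript length of a library rises. It moved with the phase, from 0.953 to 0.987 in the light phase and from 0.934 to 0.960 in the dark phase. With this quotient as a covariate SLC2A1 and SLC16A1 were no longer called. The estimates were -0.17 and -0.38, on the same side as those without the covariate, and their standard errors rose to 0.074 and 0.17. SLC16A6 was called with it (log2 fold change 0.62, limma FDR = 0.00964), as was SLC16A12 (limma FDR = 0.000327), while SLC2A12, HK1 and SLC37A4 were not. Their log2 fold changes with it were 0.15, 0.19 and -0.45, against 0.21, 0.18 and -0.47 without it, and the standard errors rose to 0.092, 0.061 and 0.115. The quotient overlapped little between the phases, and its part and that of the phase cannot be told apart in these libraries.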

How the data were processed

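Transcripts were measured in choroid plexus of 12 rats, 6 per phase. Per the study's methods and the submitters' processing notes, reads were mapped to Rnor_6.0 with STAR (2.7.9a) and genes were quantified with RSEM (1.3.3). TPM and FPKM were used as the authors deposited them, without change. The study tested read counts; on TPM, limma was used instead.

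TPM were divided by a trimmed mean of ratios to the geometric mean library (30% of ratios and 5% of levels trimmed at each end) and transformed as log2(TPM + 0.5). Genes averaging 1 TPM or more (12513) were fitted with phase alone, moderated variances and a mean trend, with Benjamini-Hochberg adjustment at 0.05. R 4.3.3, limma 3.58.1, Python 3.11.15, numpy 2.4.6, pandas 2.3.3, scipy 1.17.1 and matplotlib 3.10.9 were used. The pipeline was tested on simulated data. FPKM served for the relative depth (24.8% of 1994 ratios within 0.03 log2 of a step) and 2 alternatives.

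Symbols came only from the identifier columns of the study's gene tables, held in part, for 3700 genes. The transporters and lists were chosen with earlier results of these data known. Genes named beside the 4 transporters were the called family members and called genes of the lists, the most abundant of each family, and those most alike to each transporter (up to 3); a few genes that these rules name are not reported here; values of other genes were added after they were seen. Among 66 pairs of libraries 0 were identical. Precision rests on the spread between rats.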

Additional observations from a re-analysis of the deposited data

Results flagged for a closer look

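Among the 6 libraries of a phase, the highest or lowest value was singled out if the distance to its neighbour took up more than 0.625 of the whole range, the 95% limit of Dixon's test. In 88 groups, both phases of 44 genes (the paired genes of the lists and FAM189A2), 12 values were singled out, where about 4.4 would be by chance (1 in 20 groups). Among the 4 transporters this was SLC16A1 in dark-phase replicate 6, high at 9.95 TPM. Light-phase replicate 2 gave 7 of the others, with TTR low at 253710 TPM and LDHA at 369 TPM, EPAS1 at 91.5 TPM, PLVAP at 124 TPM, HBB at 5535 TPM, HBA-A1 at 17058 TPM and HBA-A2 at 6956 TPM high. HK1 stood low in light-phase replicate 5 at 44.9 TPM. High values were MFSD2A in light-phase replicate 1 at 8.05 TPM, RLBP1 in light-phase replicate 4 at 75.4 TPM and PLVAP in dark-phase replicate 5 at 96.8 TPM. The cause of these values was not tested.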

How the results depend on the processing

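Under 24 alternatives (scalings, pseudocounts, filters, FPKM, replicate block, robust variances, array weights, a covariate and leaving out each library), every estimate of the 4 transporters kept its direction. SLC16A6 was called in all 24. SLC2A1 was called in 23 of 24 and SLC16A1 in 22 of 23, the exception being the covariate made of summed FPKM over summed TPM, with -0.166 and -0.38; SLC16A1 could not be tested at a mean of at least 10 TPM. With that covariate 343 genes were called in place of 2204, with 0 in the SLC2A family and 2 in the SLC16A family in place of 2 and 3; the cause was not tested. SLC16A8 was called without light-phase replicate 3 (-0.51) and in no other setting.

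Leaving out each library in turn gave log2 fold changes from -0.216 to -0.172 for SLC2A1, from -0.514 to -0.378 for SLC16A1, from 0.541 to 0.613 for SLC16A6 and from -0.51 to -0.33 for SLC16A8, between 1685 and 2248 genes called, 2 in the SLC2A family throughout and 3 to 4 in the SLC16A family. The share of called genes higher in the dark phase was 54.0%, and 66.4% with TPM rescaled without TTR and 65.0% with the covariate. Replicate numbers did not pair the rats (correlation of deviations for equal numbers -0.107 to 0.047); with the replicate block 1574 genes were called, and the values were -0.199 for SLC2A1 (limma FDR = 0.03), -0.431 for SLC16A1 (0.0233), 0.577 for SLC16A6 (0.00475) and -0.429 for SLC16A8 (0.0808). The reads behind each library are not in the tables used here, so counting error is not separated from the spread between rats.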
